A study of Mus musculus with 2 samples.

Results

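Mir219a-1, Mir219a-2 and Mir338, the hairpin genes of the microRNAs (miRNAs) best known from oligodendrocytes, were followed in small RNA sequencing libraries of mouse embryonic neural tube. The 3 genes were taken by their Ensembl identifiers out of 1973 miRNA genes, and the rule used no count. Both libraries came from healthy B6NCrl mouse embryos of embryonic day 11.5 (E11.5), each from its own pool of male and female embryos (109 in replicate 1 and 88 in replicate 2), and RNA under 30 nt was sequenced. They form 1 group with no other tissue, stage, genotype or treatment, so the data give the level of each gene and how far the libraries differed. The reads counted for miRNA genes, on the strand of the gene, came to 3708662 in replicate 1 and 4055883 in replicate 2. Levels are in CPM, the gene's count in each 1000000 of those reads, as mean ± SD over n = 2 libraries unless a library is named, and 95% intervals cover counting error only.

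A miRNA gene is transcribed as a hairpin whose 5′ or 3′ arm is cut out as the mature miRNA, and the seed, bases 2 to 8 of the mature form, pairs with target mRNAs. In the oligodendrocyte lineage, the cells that wrap axons in myelin in the central nervous system, miR-219 and miR-338 are known to repress genes that hold precursors in a dividing state, among them Pdgfra and Sox6, and so to promote maturation. Oligodendrocyte precursors arise in the ventral neural tube after the main wave of motor neuron production, and miR-219 and miR-338 rise as they mature. No mRNA was measured here, so the label of these genes as oligodendrocyte miRNAs was not checked against lineage markers such as Olig2.

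The mature forms are shown first, since they decide which reads can be told apart. The 3′ form of Mir219a-2, miR-219a-2-3p, is named only, because the RefSeq sequences used here hold no mature entry for it. Sequences and positions are from RefSeq (GRCm38.p6), which held a hairpin for 3 of the 3 genes, and capitals mark the seed.
miR-219a-5p: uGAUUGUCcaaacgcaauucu
miR-219a-1-3p: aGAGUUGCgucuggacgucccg
miR-338-3p: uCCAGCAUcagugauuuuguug
miR-338-5p: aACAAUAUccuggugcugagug
Both Mir219a genes give the same miR-219a-5p of 21 nt, and no other gene among the 1738 mature entries of the RefSeq table has its seed. The seeds of miR-338-3p, miR-338-5p and miR-219a-1-3p were each found in 1 gene.

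The Mir219a hairpins are printed below with the run they share in capitals, because that run holds miR-219a-5p.
Mir219a-1: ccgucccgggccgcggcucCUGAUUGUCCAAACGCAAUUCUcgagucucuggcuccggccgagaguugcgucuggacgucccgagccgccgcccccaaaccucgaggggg
Mir219a-2: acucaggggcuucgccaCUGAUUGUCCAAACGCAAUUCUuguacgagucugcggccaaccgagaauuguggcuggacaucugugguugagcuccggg
The run was 22 nt long, from position 20 to 41 of the Mir219a-1 hairpin and from 18 to 39 of the Mir219a-2 hairpin. Over the whole hairpins, of 110 and 97 nt, 70 of 114 aligned positions (61.4%) were identical. A read that lies inside the shared run has the same letters at both loci, whereas no window of 23 nt of either hairpin was found in a hairpin of another locus. On the 3′ side the copies differ, as the stretch of the Mir219a-2 hairpin that best matched miR-219a-1-3p shows.
Mir219a-2, positions 62 to 83: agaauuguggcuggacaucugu
It was identical at 15 of 22 positions. Counted from 1 at the 5′ end of miR-219a-1-3p, with the base of miR-219a-1-3p first, the differences were G4A, C8U, U10G, G17A, C20U, C21G and G22U, and G4A and C8U lie in the seed positions. The Mir338 hairpin, of 98 nt, shared no window of 18 nt or more with a hairpin of another locus.

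**Figure D1:**
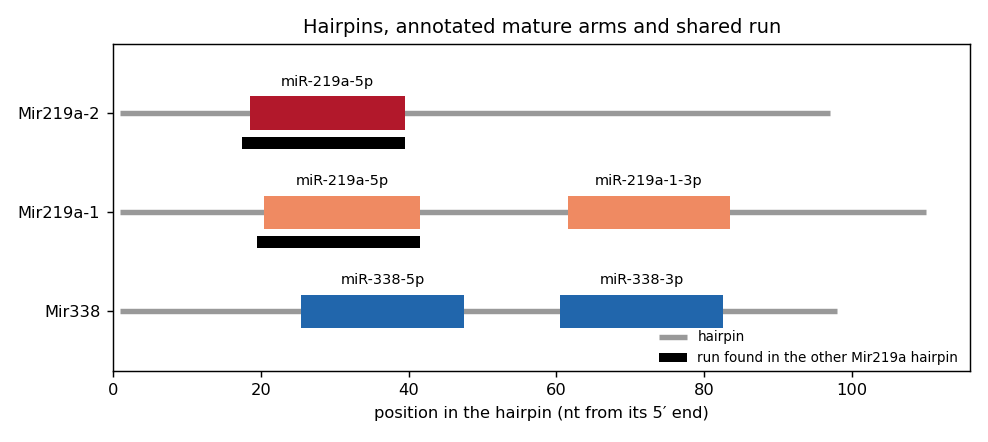
The Mir219a-2, Mir219a-1 and Mir338 hairpins drawn to scale by position in nt from the 5′ end, with coloured boxes for the mature arms listed by RefSeq and black bars for the 22 nt run found in both Mir219a hairpins. The bar covers all of miR-219a-5p in both copies and no part of miR-219a-1-3p, and Mir338 has no such bar.

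The deposited tables keep reads mapped to several places apart from the genes, and each read was counted once, since every column of a library summed to the same total (8530505 reads in replicate 1 and 7655421 in replicate 2). Such reads numbered 2153217 (25.2%) and 2088167 (27.3%). They were 67.9 times the counts of the Mir219a copies together in replicate 1 and 80.1 times in replicate 2. How many of them were miR-219a-5p was not analysed here. The Mir219a levels below therefore cover reads that the sequence could place at 1 locus, such as those of the 3′ arm or those that reach past the shared run. The arms of a hairpin were not counted apart.

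Reads mapped to several places are left out here, so which copy gives more of the shared mature form was not measured. By the reads counted, Mir219a-2 was the higher of the copies and the highest of the 3 genes. It lies on chromosome 2 from 29845631 to 29845727 on the minus strand (ENSMUSG00000065485.1, GENCODE M21 annotation of GRCm38, also called mm10), between genes, 629 bases from the end of Urm1, a ubiquitin-like modifier gene, and 23437 bases from Cercam. Replicate 1 gave 30215 counts, or 8147 CPM (95% exact Poisson interval 8056 to 8240), and replicate 2 gave 24553 counts, or 6054 CPM (5978 to 6130). The mean was 7100 ± 1480 CPM (SD, n = 2), which is 0.710% ± 0.148 of own-strand counts. It stood at rank 28 of 1973 genes by mean CPM, at rank 24 in replicate 1 and 31 in replicate 2.

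Mir219a-1, the second copy, lies on chromosome 17 from 34024983 to 34025092 on the minus strand (ENSMUSG00000065555.1), 303 bases from Ring1, a Polycomb group gene, and 941 bases from H2-Ke6. On its own strand it overlaps an exon of the long noncoding RNA gene Gm26940 over 88 bases. It had 1517 counts in replicate 1, or 409 CPM (exact Poisson interval 389 to 430), and 1506 counts in replicate 2, or 371 CPM (353 to 391). Its mean of 390 ± 26.7 CPM put it at rank 135.

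Mir338 lies on chromosome 11 from 120014765 to 120014862 on the minus strand (ENSMUSG00000065600.1), in an intron of Aatk, a kinase gene of the nervous system read in the same direction. It was the lowest of the 3 genes, with 190 counts in replicate 1, or 51.2 CPM (exact Poisson interval 44.2 to 59.1), and 179 counts in replicate 2, or 44.1 CPM (37.9 to 51.1). The mean was 47.7 ± 5.02 CPM, at rank 247. All 3 genes had over 100 counts in each library, so each passed the minimum of 10 summed counts used for the tests. In bulk tissue, few cells with much of a miRNA and many cells with little of it cannot be told apart.

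**Figure D2:**
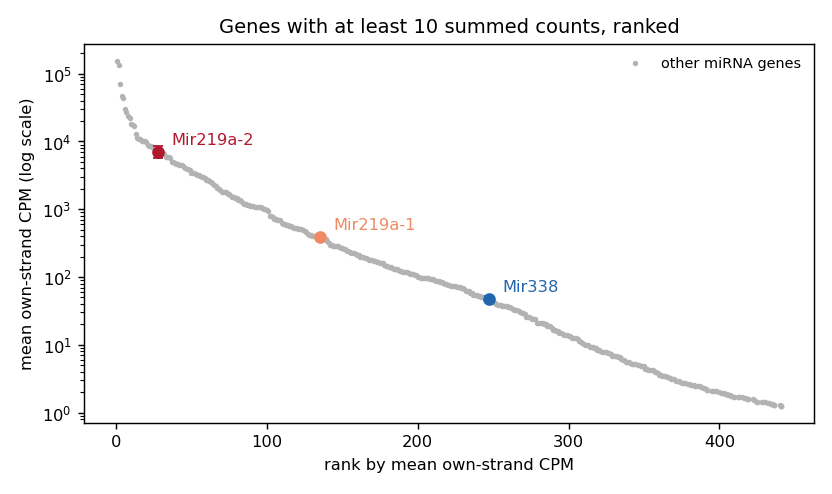
Mean own-strand CPM (log scale) against rank for the 444 genes with at least 10 summed counts in both libraries together, with Mir219a-2, Mir219a-1 and Mir338 coloured and bars of 1 SD (n = 2). The coloured points stand at ranks 28, 135 and 247, with means of 7100, 390 and 47.7 CPM.

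The order of the 3 genes was the same in both libraries, and the ranges of their levels did not overlap. The ratio of Mir219a-2 to Mir219a-1 was 19.9 in replicate 1 (95% exact binomial interval 18.9 to 21.0) and 16.3 in replicate 2 (15.5 to 17.2), a mean ratio of 18.1 ± 2.56. These intervals do not overlap, so the ratio of the copies differed between the libraries by more than counting error, and it is the same under any scaling of the libraries. Per nt of hairpin the ratio was 22.6 and 18.5, though counts of RNA under 30 nt need not grow with hairpin length. Mir219a-2 exceeded Mir338 by 159-fold (138 to 184) and 137-fold (118 to 160). Mir219a-1 exceeded Mir338 by 7.98-fold (6.86 to 9.33) and 8.41-fold (7.20 to 9.88), with intervals that overlap for both of these pairs. All are ratios of counts, because the capture of one miRNA relative to another is unknown here, and the ratios with Mir219a copies leave out reads mapped to several places. With 2 libraries the smallest two-sided p that a permutation test allows is 0.5, so none was run on these ratios.

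**Figure D3:**
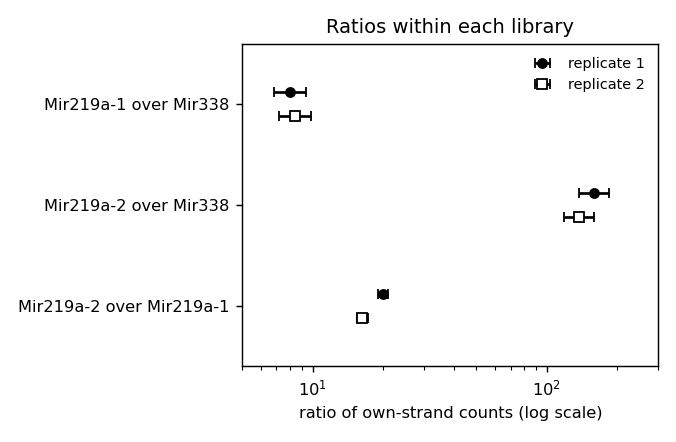
Ratio of own-strand counts (log scale) for each pair of the 3 genes, with filled circles for replicate 1, open squares for replicate 2 and bars for 95% exact binomial intervals. The bars of the libraries are apart for Mir219a-2 over Mir219a-1 (19.9 and 16.3) and overlap for the other pairs.

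On the opposite strand, each hairpin is matched by a second annotated miRNA gene with no row of its own used here. Mir219b lies opposite Mir219a-2 (65 bases), Mir219c opposite Mir219a-1 (60 bases) and Mir3065 opposite Mir338 (87 bases), so their reads could be counted only as opposite-strand reads of the genes they face. The 5′ arm of Mir219b, shown because its level is set by that count, is as follows, with the seed in capitals.
miR-219b-5p: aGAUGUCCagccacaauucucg
Opposite Mir219a-2, replicate 1 had 3 counts and replicate 2 had 2. These do not exceed 3 counts, the floor set here. Their exact Poisson intervals were 0.167 to 2.36 CPM in replicate 1 and 0.0597 to 1.78 CPM in replicate 2. Such an interval lies above 0 whenever any read is counted. These counts formed 0.00993% (95% exact binomial interval 0.00205 to 0.0290) and 0.00814% (0.000986 to 0.0294) of the reads at the locus. Mir219b thus had few counts, none above that floor, which does not show that it was absent. Its hairpin shares 22 nt with the reverse complement of the Mir219a-1 hairpin, so reads of its 3′ side could stand among those mapped to several places.

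Opposite Mir338 there was 1 count in each library. Opposite Mir219a-1 there were 15 counts in replicate 1, or 4.04 CPM (exact Poisson interval 2.26 to 6.67), and 5 in replicate 2, or 1.23 CPM (0.400 to 2.88). They made up 0.979% (0.549 to 1.61) and 0.331% (0.108 to 0.771) of the reads at that locus, with intervals that overlap. Mir219a-1 thus had more opposite-strand counts than Mir219a-2 in both libraries, though its own-strand level was the lower. These counts are few, and the exact Poisson intervals at Mir219a-2 (0.167 to 2.36 and 0.0597 to 1.78 CPM) overlap those at Mir219a-1 in each library. Of 312 genes with at least 100 counts on either strand, 263 had no opposite-strand count, and 15 had a larger share of such counts than Mir219a-1.

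The difference between the libraries was tested for each of 444 genes by a two-sided exact binomial test, in which the library totals set the share of counts to be found in each library, and p-values were adjusted by the Benjamini-Hochberg method. It compares these libraries, not conditions. Of all genes tested, 53.2% were called, 45.3% higher in replicate 1 and 7.88% higher in replicate 2. The median gene lay 0.27 higher in replicate 1 on the log2 scale. Of the 3 genes, 2 were called, both higher in replicate 1, against that background. Mir219a-2 was 1.35-fold higher in replicate 1 (log2 difference 0.43, exact binomial adjusted p = 4.71e-262). Mir219a-1 was 1.10-fold higher (0.14, exact binomial adjusted p = 0.0163). Mir338, at 1.16-fold (0.21), did not pass (exact binomial adjusted p = 0.252).

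Scaled by TMM (trimmed mean of M values), which moved every log2 difference by -0.29, 39.9% of genes were called, 18.2% higher in replicate 1 and 21.6% higher in replicate 2. With DESeq2 size factors 42.1% were called, 23.0% and 19.1% in these directions. Mir219a-2 was still higher in replicate 1 by TMM, at 1.10-fold (0.14, exact binomial adjusted p = 4.16e-29, the highest of its alternatives, which reached down to 3.19e-262). The direction of Mir219a-1 turned with the scaling. It was 1.11-fold higher in replicate 2 by TMM (-0.15, exact binomial adjusted p = 0.0145) and did not pass with DESeq2 size factors (-0.10, exact binomial adjusted p = 0.148), and its adjusted p ranged from 0.0114 to 0.148 over all alternatives. Mir338 also turned, to -0.073 by TMM and -0.020 with DESeq2 size factors, and passed under no alternative (exact binomial adjusted p from 0.200 to 0.976).

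The spread between the libraries puts these differences in scale. The coefficient of variation of CPM over the libraries was 20.8% for Mir219a-2, 6.84% for Mir219a-1 and 10.5% for Mir338. For 272 genes whose summed counts reached 200, the median of this coefficient was 13.9%. Of those genes, 54.4% lay farther from their common median difference than Mir219a-2 did, 66.5% farther than Mir219a-1 and 87.1% farther than Mir338. Each of the 3 genes thus lay nearer to that median than most of these genes did, although Mir219a-2 and Mir219a-1 passed the test against counting error.

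**Figure D4:**
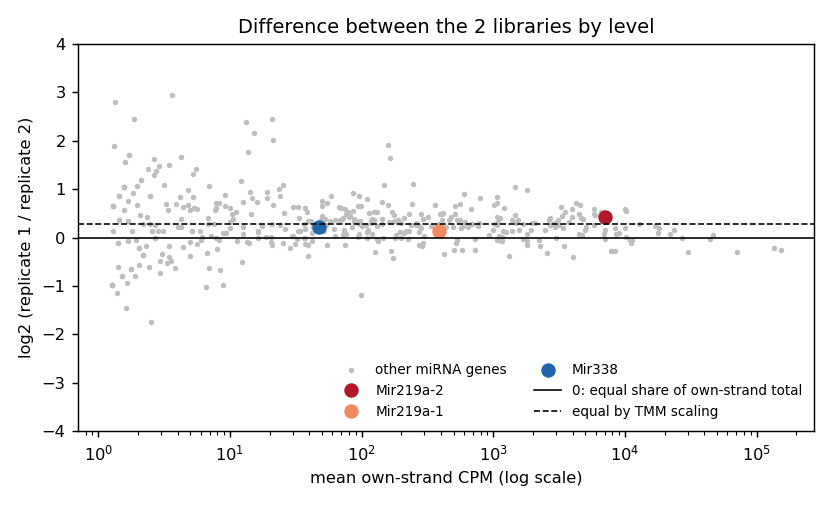
Log2 difference of replicate 1 over replicate 2 against mean own-strand CPM (log scale) for 444 genes, with Mir219a-2, Mir219a-1 and Mir338 coloured. The solid line marks equal shares of the own-strand total and the dashed line marks equality by TMM scaling: the 3 genes lie above the solid line, at 0.43, 0.14 and 0.21, and only Mir219a-2 lies above the dashed one.

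Other miRNAs linked to the oligodendrocyte lineage were also counted. Mir23a, which promotes myelination, held 3340 ± 737 CPM and stood below Mir219a-2, which exceeded it 2.11-fold and 2.15-fold in replicates 1 and 2. Mir138-1 and Mir138-2, copies that give a miRNA of early oligodendrocyte differentiation, held 175 ± 28.6 and 87.1 ± 14.4 CPM. Mir7-1, Mir7-2 and Mir7b, genes linked to the making of precursors, held 211 ± 41.6, 82.2 ± 17.6 and 146 ± 0.442 CPM. Mir219a-2 exceeded all 6 of these genes in both libraries, Mir219a-1 exceeded 5 of 6, and Mir338 exceeded none. The copies of Mir138 share 24 nt, as do Mir7-1 and Mir7-2, and Mir23a shares 20 nt with Mir23b, so their counts too leave out reads mapped to several places. Of these 6 genes 5 were called higher in replicate 1 and 0 higher in replicate 2, with a median log2 difference of 0.37. Over all genes tested, 45.3% and 7.88% were called in these directions and the median was 0.27. By TMM, against 18.2% and 21.6% of all genes, 1 was called higher in replicate 1, Mir23a (0.17, exact binomial adjusted p = 2.02e-19), and 1 higher in replicate 2, Mir7b (-0.29, exact binomial adjusted p = 0.00217).

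Set beside genes of neural progenitors and neurons, Mir219a-2 stood above all 12 with a row used here in both libraries. Mir92b, abundant in neural progenitors, was the closest at 4979 ± 383 CPM, and the ratio of Mir219a-2 to it was 1.55 in replicate 1 and 1.29 in replicate 2. It exceeded Mir137, a miRNA of neuronal differentiation, by 3.76-fold and 3.44-fold. Mir219a-1 stood above 9 of the 12 in both libraries, and below Mir92b, Mir137 and Mir153. Mir338 stood above 5 of the 12. These 5 were Mir218-1 (36.6 ± 0.237 CPM), Mir9-2 and the 3 copies of Mir124a, which ranged from 1.56 to 10.5 CPM on average. All 5 are genes with copies. Copies of Mir9 share up to 33 nt, those of Mir128 23 nt and those of Mir218 22 nt, and shared runs of Mir124a were not analysed here. Reads mapped to several places are left out for such genes, so these orders are orders of reads counted and not of the mature miRNAs. Of the 12 genes 5 were called higher in replicate 1 and 0 higher in replicate 2 (median log2 difference 0.29), against 45.3% and 7.88% of all genes. By TMM 2 and 3 were, against 18.2% and 21.6% of all genes.

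**Figure D5:**
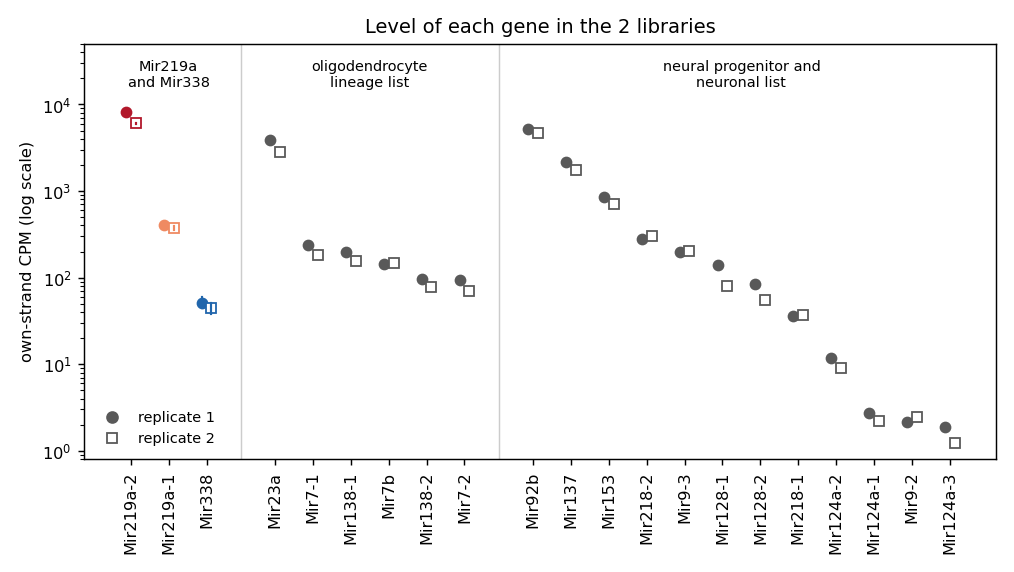
Own-strand CPM (log scale) of Mir219a-2, Mir219a-1 and Mir338, of the 6 oligodendrocyte lineage genes and of the 12 neural progenitor and neuronal genes, with filled circles for replicate 1, open squares for replicate 2 and, for the first 3 genes, bars for exact Poisson intervals. Mir219a-2 lies highest of all the genes drawn in both libraries, and Mir338 lies below all 6 oligodendrocyte lineage genes.

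Genes of miRNAs best known from other tissues were also counted. Neither the cells their reads came from nor their part in the levels above was tested. The endothelial gene Mir126a was above Mir219a-2, with a ratio of 3.06 in replicate 1 and 3.68 in replicate 2. The 6 mesenchyme genes summed to 23950 and 17615 CPM, the 4 erythroid and leukocyte genes with a row used here to 999 and 723 CPM, and the 5 muscle genes to 1398 and 793 CPM. Most of the mesenchyme sum came from Mir214, Mir143 and Mir140, at 9943, 5789 and 4821 CPM on average. Mir145a, Mir199a-2 and Mir199a-1 averaged 123, 96.5 and 9.41 CPM. Of the muscle sum, Mir206 alone held 1358 and 761 CPM and Mir133b 39.6 and 32.8 CPM, while Mir1a-1 had 1 count in replicate 1 and 0 in replicate 2, and Mir133a-1 and Mir133a-2 were at 0 in both libraries. Mir1a, Mir133a and Mir199a are genes with copies, whose shared runs were not analysed here. Reads mapped to several places are left out for them, so their low counts do not show that the mature miRNAs were absent. The liver gene Mir122 held 7.82 and 7.89 CPM. By own-strand totals, the sums of these lists other than liver were all higher in replicate 1, as was the median gene. So were the oligodendrocyte lineage sum (4634 and 3448 CPM, of which Mir23a held 3861 and 2818) and the neural sum (9039 and 7860 CPM, of which Mir92b held 5250 and 4708). The sums were not scaled by TMM. By TMM, Mir126a was higher in replicate 2 (-0.13, exact binomial adjusted p = 7.14e-77). Called higher in replicates 1 and 2 were 2 and 0 mesenchyme, 2 and 0 erythroid and leukocyte and 1 and 0 muscle genes. Over all genes these calls were 18.2% and 21.6%.

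By level, the genes ranked next to Mir219a-2 were Mir130b, Mir296, Mir298 and Mir181c, at 7004 to 7877 CPM on average. Those next to Mir219a-1 were Mir340, Mir376c, Mir210 and Mir199b, at 380 to 394 CPM. The ranges over the libraries of all 8 overlapped that of the gene they neighbour, so these ranks are not settled by 2 libraries. Next to Mir338 stood Mir668, Mir346, Mir3475 and Mir488, at 42.3 to 49.6 CPM, and of these only Mir488 (42.3 ± 1.95 CPM) had a range that did not overlap that of Mir338.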

How the data were processed

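Small RNA of mouse E11.5 neural tube was sequenced in 2 libraries, each an embryo pool. Raw counts of reads for each miRNA gene were deposited (mm10, GENCODE M4, per the file headers). For the aligner, counter and trimming, the sources used here give nothing. Of 3 unnamed columns, read from layout and values as either, own and opposite strand, own-strand counts were used. Reads outside own-strand gene counts (56.5% and 47.0%), multimapped and opposite-strand reads included, stayed out of totals. Columns not tied to a sample numbered 0. The labels name separate pools, so the libraries were taken as replicates.

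Symbols and coordinates came from GENCODE M21 (GRCm38; 1894 of 1973 identifiers matched) and sequences from RefSeq. Mir7-1 and Mir7-2 were matched through RefSeq synonyms. The members and lists were chosen with earlier results of these data known. Named genes were the 3 members, overlapping miRNA genes, rank neighbours, genes with the nearest library difference and the lineage and neural lists. The exact binomial test (threshold 0.05, pseudocount 0.5) was tested on simulated data with counting error alone. The simulation left out the spread between real libraries, so it does not cover calls that this spread brings. Scaling used TMM in edgeR 4.0.16 or the size factors of DESeq2 1.42.0 (R 4.3.3). The rest used Python 3.11.15, scipy 1.17.1 and Biopython 1.88. Alternatives were scaling, strand, filter, pseudocount and leaving out each library.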

Additional observations from a re-analysis of the deposited data

How the results depend on the processing

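Of 54 alternative values, 4 reversed and 5 moved by more than 1 SD between the libraries. The other 45 kept direction and side of the threshold, stayed within 1 SD or, for counts of genes, within 1.5 times. They include the values without either library, which with n = 2 always lie within 1 SD of the mean. Those values are thus no check of stability. Per 1000000 of all reads in the file, in place of own-strand counts, the levels were 3375 for Mir219a-2, 187 for Mir219a-1 and 22.8 for Mir338, and the opposite-strand levels 0.306 at Mir219a-2 and 0.124 at Mir338. That at Mir219a-1 went from 2.64 ± 1.99 to 1.21, which is within its wide SD, and without either library it ranged from 1.23 to 4.04 CPM. The order of the 3 genes within a library cannot change when all its counts are divided by the same total. The log2 difference reversed for Mir219a-1 to -0.15 by TMM and -0.10 with DESeq2 size factors, and for Mir338 to -0.073 and -0.020, since each scaling moves all genes alike. Without either library, Mir219a-2 ranged from 6054 to 8147 CPM, Mir219a-1 from 371 to 409, Mir338 from 44.1 to 51.2, and the ratio of the Mir219a copies from 16.3 to 19.9. Divided by hairpin length, an alternative chosen after seeing the data, that ratio was 20.5. Genes called ranged from 177 by TMM to 245 in counts of either strand, against 236. No paired analysis was possible because there is 1 group. Depth limits Mir338 most, with fewer than 200 counts in each library.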

Other observations

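The Mir219a-1 hairpin was rich in G and C. Its content was 69.1%, higher than that of 96.7% of the 1005 hairpins in the RefSeq table, whose median was 51.7%. Mir219a-2 had 55.7% and Mir338 had 56.1%.

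Of the 272 genes that averaged 100 counts or more, Mir19a, Mir27b and Mir15a had the difference between libraries nearest to that of Mir219a-2. Their means were 80.1 ± 16.7, 1072 ± 224 and 3952 ± 829 CPM. Those nearest to Mir219a-1 were Mir18b (228 ± 15.5 CPM), Mir34b (32.9 ± 2.26 CPM) and Mir188 (1376 ± 97.4 CPM). Those nearest to Mir338 were Mir369 (2965 ± 312 CPM) and Mir370 (637 ± 67.3 CPM) of the imprinted Dlk1-Dio3 cluster and Mir3475 (42.9 ± 4.53 CPM). This likeness is over 2 libraries only.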
